A study of Homo sapiens with 32 samples.

Results

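The arrays described here are the 12 of the 32 in the study that were made from GM12813, an Epstein-Barr virus transformed B-lymphoblastoid line from a HapMap donor. They were chosen by title alone: the line was grown as 3 biological replicates, and each replicate has a first array and an array titled as its technical duplicate, once for total RNA and once for nascent RNA. Per the study design, biological replicates are independent cell cultures, so they are called cultures 1, 2 and 3 below. The first array of a culture is called run 1 and its technical duplicate run 2. Every culture, with no untreated control among them, was given 200 µM 4-thiouridine (4sU) for 2 h. RNA was then isolated, 4sU-labelled nascent RNA was separated from total RNA of the same culture, ribosomal RNA was reduced with the RiboMinus kit, and cDNA was hybridised to a human exon array. GM12813 is a single line, and it is the only line of the 7 in the study that was run again. The labels do not state at which step the duplicate was split from the first array, which could be RNA separation, cDNA synthesis or hybridisation. The p-values below therefore measure only the spread among the arrays in each test, which are these 12 or, between lines, these and the arrays of GM07029 and GM10835.

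4sU is a uridine analogue that cells build into RNA while it is given. RNA that carries it was made during the labelling and can be pulled out through its thiol group, and this is the nascent fraction. Total RNA holds old and new molecules together. Fast turnover of a transcript gives a high nascent/total ratio and slow turnover a low one, and the study used this ratio to estimate mRNA half-life. Repeat arrays of one culture carry only what happens after the culture was split. Repeat cultures carry that and, in addition, differences in growth, density and labelling.

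Values are log2 intensities of transcript clusters, the probe sets that the array assigns to one gene. Each array was centred on its median over the clusters tested, so a value of 1 means 2 times the array's median signal. Of 21788 clusters, 14167 had a mean over the 32 arrays above 6.40, which is the 95th percentile of 216 clusters for olfactory receptors, genes of the nasal epithelium used here as background. Of these, 9631 have 1 gene symbol, 1518 have several and 3018 have none. In all, 11377 of the tested clusters (80.3%) lay above background on each of the 12 arrays. Background means 6.40 in both fractions here and below. Taken over the GM12813 arrays of 1 fraction, the same percentile was 5.95 in total RNA and 6.77 in nascent RNA. The cutoff is therefore strict for total RNA and lax for nascent RNA.

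B lymphoblast markers were bright, while the other marker lists averaged near or below background, with single members above it. Of 10 B lymphoblast markers, 9 are on the array, and all 9 were tested, with mean log2 values of 10.5 to 10.8 across the total RNA arrays and 10.6 to 10.7 across the nascent RNA arrays. T and NK cell markers averaged 5.45 to 5.75 in total RNA, with 2 of 10 tested, and monocyte and granulocyte markers 5.06 to 5.30, with 1 of 8 tested. Fibroblast and epithelial markers averaged 5.96 to 6.32 in total RNA, with 5 of 9 tested. In nascent RNA the T and NK cell markers averaged 5.95 to 6.05 and the monocyte and granulocyte markers 5.68 to 5.83. Fibroblast and epithelial markers averaged 6.64 to 6.85 there, with 6 of 9 above background. The keratin KRT8 of that list lay above the array median on every total RNA array. In bulk RNA such as this, fewer cells of a type and less RNA per cell cannot be told apart.

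One total RNA array stood apart. The first array of culture 3 differed from the other 5 total RNA arrays by a mean of 0.254, as the median absolute log2 difference over clusters. That of culture 1 differed by 0.212, and the remaining 4 by 0.155 to 0.164. The first array of culture 3 also had the narrowest spread of values, with an interquartile range of 2.91, and the first array of culture 1 the widest, 3.36. The nascent RNA arrays were more alike, with interquartile ranges of 3.12 to 3.26. Some results in total RNA and the ratio are also given without the first total RNA array of culture 3. These are the pair differences, the leading axis, deviations by gene length, of mitotic genes and of marker lists, and some counts of calls. The other results in these measures include it unless stated.

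Repeat arrays of one culture were about as far apart as arrays of different cultures. In total RNA the median absolute log2 difference between run 1 and run 2 was 0.197 in culture 1, 0.111 in culture 2 and 0.199 in culture 3, with a mean of 0.169 ± 0.0503 (SD, n = 3 pairs). Between arrays of different cultures in the same run it was 0.196 ± 0.0833 (SD, n = 6 pairs), with a range of 0.124 to 0.342. Between arrays that differed in both culture and run it was 0.182. The widest pair was the first array of culture 1 with that of culture 3, in which 958 clusters (6.76%) differed by at least 2-fold. No test was made between the kinds of pair, because the pairs share arrays. Without the first array of culture 3 the order turned: the mean was 0.154 for repeat arrays and 0.146 for different cultures in the same run.

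Nascent RNA repeated more closely than total RNA in cultures 1 and 3, and about as closely in culture 2. Run 1 and run 2 differed by a median of 0.0990 in culture 1, 0.120 in culture 2 and 0.0688 in culture 3, with a mean of 0.0957 ± 0.0255 (SD, n = 3 pairs). Different cultures in the same run differed by 0.102 ± 0.0173 (SD, n = 6 pairs), with a range of 0.0722 to 0.119 that overlapped that of the repeat pairs. The clusters at least 2-fold apart between repeat arrays numbered 13, 21 and 4 in cultures 1, 2 and 3 in nascent RNA, against 175, 80 and 284 in total RNA.

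For the nascent/total ratio the difference between repeat runs was 0.198 in culture 1, 0.150 in culture 2 and 0.205 in culture 3, close to that of total RNA. Their mean was 0.185 ± 0.0302 (SD, n = 3 pairs), against 0.191 ± 0.0706 (SD, n = 6 pairs) between different cultures in the same run. Without the first total RNA array of culture 3 these were 0.174 and 0.149. Between repeat runs, 270, 162 and 346 clusters were at least 2-fold apart in ratio.

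**Figure D1:**
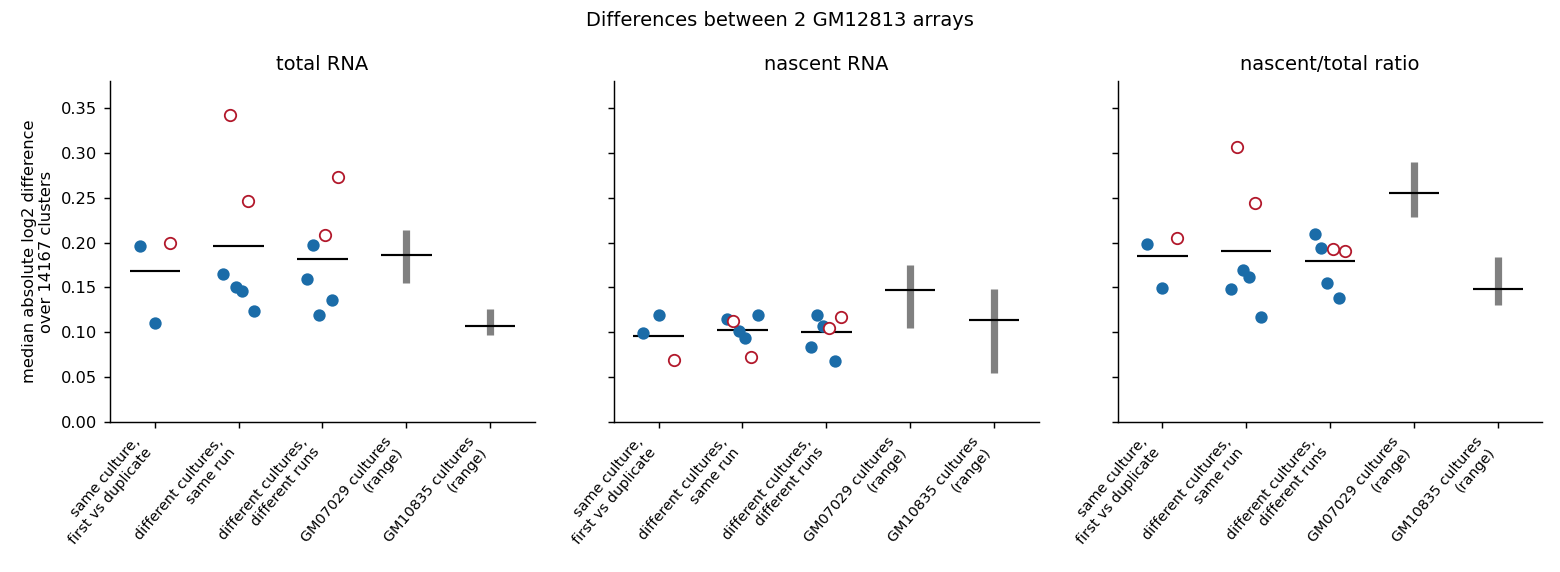
Median absolute log2 difference over the 14167 tested clusters for each pair of GM12813 arrays, by kind of pair, in total RNA, nascent RNA and the nascent/total ratio; each circle is 1 pair, open circles mark pairs that hold the first array of culture 3, and grey bars with a black mean give the range between cultures of GM07029 and GM10835. The 3 repeat pairs lie within or near the range of the pairs of different cultures in each panel, and the total RNA pairs that reach furthest, to 0.342, hold the first array of culture 3.

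With the 2 runs averaged, the cultures lay closer together. The mean difference between cultures was 0.156 in total RNA, 0.0766 in nascent RNA and 0.141 in the ratio, and the clusters at least 2-fold apart between cultures 1 and 3 in total RNA numbered 153. The other 2 lines with 3 cultures have single arrays. Cultures of GM07029 differed by 0.186 in total RNA, 0.147 in nascent RNA and 0.256 in the ratio. Cultures of GM10835 differed by 0.107, 0.114 and 0.149. Arrays of GM12813 differed from those of the 6 other lines by more on average, with means per line of 0.224 to 0.333 in total RNA, 0.188 to 0.338 in nascent RNA and 0.251 to 0.374 in the ratio. Single pairs overlapped: the widest GM12813 pair in total RNA, 0.342, was above the closest pair with GM12814, 0.188.

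A technical duplicate was often not the nearest array to its partner. In total RNA, 3 of 6 arrays had their own duplicate as the nearest array, namely both arrays of culture 2 and the first of culture 3. In nascent RNA it was 1 of 6, the first array of culture 3, and in the ratio 0 of 6. In nascent RNA the first array of culture 1 and the second of culture 2 were each other's nearest, and so were the first of culture 2 and the second of culture 3. For each array, the deviation from the mean of the 3 arrays of its run was taken. Over clusters, these deviations correlated between repeat arrays with r of -0.03, 0.27 and 0.29 in total RNA for cultures 1 to 3. In nascent RNA r was 0.15, -0.22 and 0.31. Such values come from shared arrays and many dependent clusters and are given as a description.

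No cluster passed the test of run 2 against run 1. With limma, paired over the 3 cultures and adjusted by Benjamini-Hochberg over all 14167 clusters, 0 clusters (0%) were called at 0.05 in total RNA, in nascent RNA and in the ratio. At an unadjusted p under 0.05 there were 199 (1.4%), 857 (6.05%) and 277 (1.96%). The lowest adjusted p was 0.0659, in nascent RNA, for a cluster without a symbol, and in total RNA and the ratio the lowest was close to 1. Run 2 lay on the same side of run 1 in all 3 cultures for 2013 clusters (14.2%) in total RNA, 3778 (26.7%) in nascent RNA and 2271 (16.0%) in the ratio. Signs that fall at random give 1 side in 3 pairs with a probability of 0.25. The nascent share is near this, and the other shares are below it. An exact sign-flip permutation test of a single value over 3 pairs cannot go below p = 0.25 (two-sided), so none is given.

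No cluster passed the test between cultures either, in which the error is the spread of repeat arrays. The moderated F test over 3 cultures called 0 clusters (0%) in each measure, and at an unadjusted p under 0.05 it held 1001 (7.07%) in total RNA, 1003 (7.08%) in nascent RNA and 589 (4.16%) in the ratio. The lowest adjusted p values were 0.576, 0.566 and 0.830. The median over clusters of the range of culture means was 0.25 in total RNA, 0.12 in nascent RNA and 0.23 in the ratio. The ratio of the mean square between cultures to the residual mean square, taken over all clusters, was 1.36, 1.13 and 0.908. The counts depend on single arrays, as given in the last section. With 1 array left out, its culture is held by the other array alone. Without the second total RNA array of culture 3, that is the first one, which stood apart. Such counts are not read as differences between cultures.

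Differences between cultures repeated unevenly from run 1 to run 2. Over clusters, the difference between cultures 1 and 2 in total RNA correlated between runs with r of -0.05, that between cultures 1 and 3 with 0.12 and that between cultures 2 and 3 with 0.39. Of the 958 clusters at least 2-fold apart between cultures 1 and 3 on run 1, 22 were so in the same direction on run 2, where 138 clusters in all were 2-fold apart, and 317 had the opposite sign. Over all clusters the sign agreed between runs for 46.5%, 53.8% and 70.0% in total RNA. In nascent RNA the correlations were -0.14, 0.36 and 0.00, and in the ratio 0.05, -0.08 and -0.08. Run differences varied from culture to culture. In total RNA they correlated between cultures 1 and 2 with -0.09, between cultures 1 and 3 with -0.48 and between cultures 2 and 3 with 0.13.

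The runs of total RNA differed with the length of the gene. In total RNA the leading axis of variation among the 6 arrays took 56.2% of the variance and set the first array of culture 1, at -0.57, against the first of culture 3, at 0.78. Genes were ranked by genomic span into 5 classes of nearly equal size. The 1925 clusters of the class with the shortest genes, with a median span of 4.61 kb on GRCh38, deviated from their 6-array mean by a median of -0.19 on the first array of culture 1 and 0.21 on that of culture 3. The class with the longest genes, with a median span of 137 kb, deviated by 0.05 and -0.08 there. Without the first array of culture 3, the first array of culture 1 still lay at the end of the leading axis, at -0.82, and its deviations were -0.14 for the shortest and 0.03 for the longest genes. Run 2 minus run 1 for the shortest genes was therefore 0.23 in culture 1, -0.02 in culture 2 and -0.18 in culture 3, and for the longest genes -0.10, 0.05 and 0.09. Without centring the shortest genes gave 0.10, -0.08 and -0.08 and the longest -0.23, 0.00 and 0.19, so the shortest stayed above the longest in culture 1 and below them in culture 3. In nascent RNA the shortest genes gave 0.05, -0.13 and 0.02. The span of a gene moves with other traits, such as its class and signal level, and their part in this pattern was not tested.

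**Figure D2:**
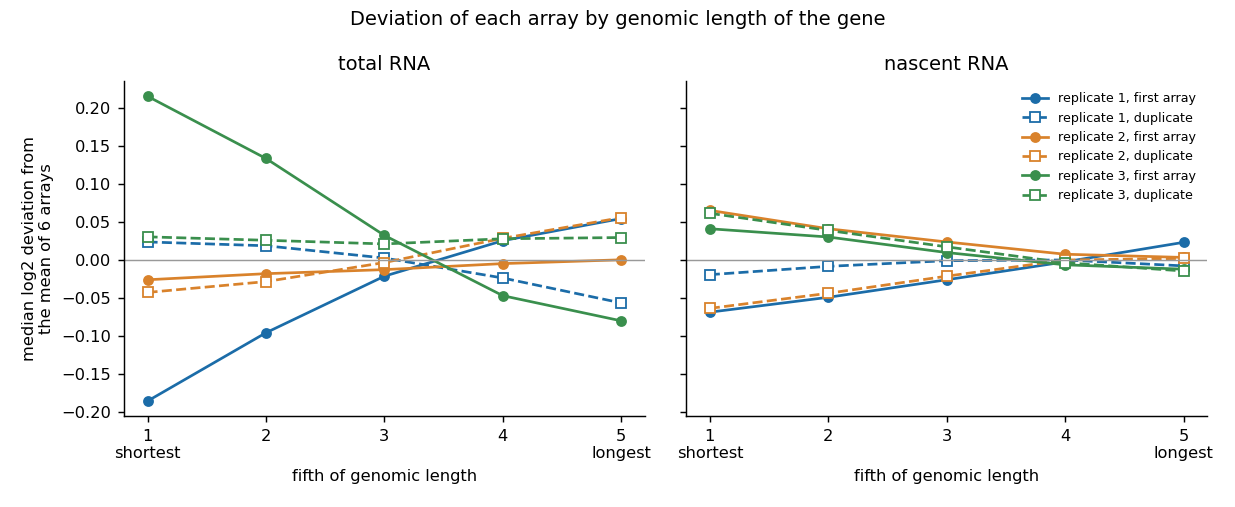
Median log2 deviation of each GM12813 array from the mean of the 6 arrays of its fraction, by length class (5 classes of genomic span, shortest to longest), in total and nascent RNA; solid lines are first arrays, dashed lines technical duplicates, and each colour is a culture. In total RNA the first arrays of cultures 1 and 3 slope in opposite directions, from -0.19 to 0.05 and from 0.21 to -0.08.

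Dim clusters repeated less well than bright ones, in repeat arrays and in repeat cultures alike. In total RNA the mean difference between repeat arrays was 0.297 for clusters with a mean log2 signal under 6 and 0.139 for those of at least 11. Between cultures in the same run it was 0.331 and 0.175. In nascent RNA repeat arrays differed by 0.140 at a signal of 6 to 7 and 0.0814 at 11 or more. In the ratio the difference went from 0.355 in the dimmest clusters to 0.131 in the brightest.

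**Figure D3:**
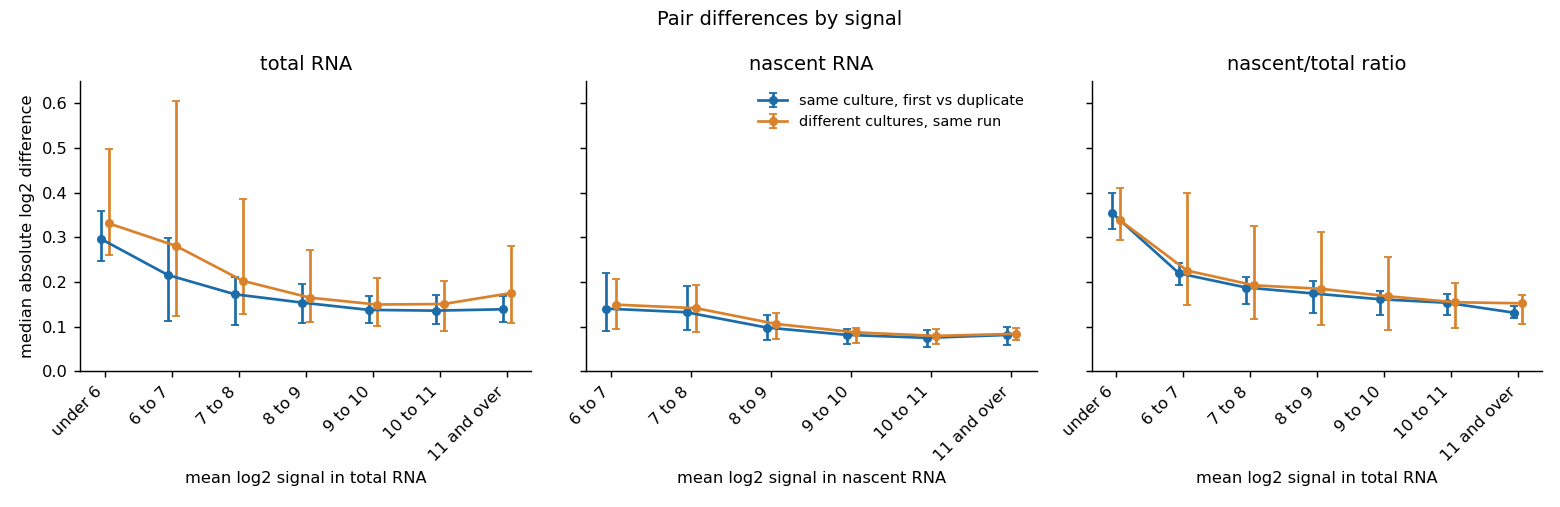
Median absolute log2 difference of repeat arrays of one culture and of different cultures in the same run, by bin of mean log2 signal over the GM12813 arrays of the fraction; points are means over pairs and bars run from the lowest to the highest pair, and the nascent bin under 6 is not drawn because it holds 10 clusters. In total RNA the repeat arrays go from 0.297 in the dimmest bin to 0.139 in the brightest, and the bars of both kinds of pair overlap.

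Clusters without a gene symbol also repeated less well. Clusters with 1 symbol differed by 0.156 between repeat arrays and 0.180 between cultures in total RNA, and clusters without a symbol by 0.232 and 0.276. The 11 olfactory receptor clusters bright enough to be tested differed by 0.504 and 0.488. None of the gene lists below had a member past either test, and their counts are set beside those of all clusters.

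Genes of mitochondrial energy production showed how a run difference turned between cultures. Of 55 tested genes for subunits of the oxidative phosphorylation complexes, run 2 lay above run 1 in total RNA for 51 in culture 1, 21 in culture 2 and 14 in culture 3, where all clusters gave 59.3%, 55.8% and 45.5%. The median run differences were 0.37, -0.05 and -0.18. Without centring the counts were 47, 15 and 20 of 55, and with quantile normalization 51, 21 and 12. Leaving out the centring shifts all clusters of an array by the same amount, so counts without it are to be read against those of all clusters. Run 2 then lay above run 1 in total RNA for 5757, 5849 and 8410 of 14167, with median differences of -0.07, -0.03 and 0.07 in place of 0.07, 0.02 and -0.03. In nascent RNA the same genes gave 38, 19 and 32 of 55, with medians of 0.06, -0.08 and 0.02, where all clusters gave 55.9%, 39.5% and 55.5%. Their median genomic span was 10.5 kb, so the difference by gene length moves with them, and its part was not tested. Proteins of the mitochondrial ribosome, which translates the transcripts of mitochondrial DNA, gave 55, 20 and 21 of 65 in total RNA, and 44, 12 and 41 without centring.

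Proteins of the cytosolic ribosome and of the proteasome, the protease that degrades ubiquitin-tagged proteins, had the same order of cultures. Of 23 cytosolic ribosomal protein genes, run 2 lay above run 1 in total RNA for 18, 11 and 6, with medians of 0.26, -0.02 and -0.29. Of 29 proteasome subunits it did for 26, 16 and 13, with medians of 0.22, 0.01 and -0.07. Without centring the cytosolic ribosomal proteins gave 15, 11 and 8 and the proteasome 19, 7 and 17. Genes of mitosis, which separate the chromosomes, went the other way, with 14, 19 and 23 of 30 and a median of 0.23 in culture 3, and with 6, 10 and 25 without centring. Their median deviation on the first total RNA array of culture 3 was -0.24, and without that array the other 5 lay between -0.08 and 0.06. Zinc finger genes of the ZNF series, many of them transcriptional repressors with fast mRNA turnover, had median run differences of -0.11, 0.05 and 0.11 over 243 genes, and of -0.25, -0.01 and 0.21 without centring. Immediate early genes, which respond to stimulation within minutes, gave 25, 14 and 12 of 33, and targets of NF-kB, which is active in virus-transformed B cells, gave 19, 6 and 3 of 22. Without centring these lists gave 14, 11 and 16 of 33 and 9, 2 and 14 of 22.

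Over all clusters, the ratio had run 2 above run 1 in 59%, 56.3% and 47.9%.

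Few genes held the cultures apart without overlap. The arrays of the 3 cultures did not overlap for 1660 clusters (11.7%) in total RNA, 1075 (7.59%) in nascent RNA and 955 (6.74%) in the ratio. In total RNA this held for 6 of 55 oxidative phosphorylation genes, 11 of 65 mitochondrial ribosomal proteins, 6 of 29 proteasome subunits and 6 of 44 replication-dependent histones. In nascent RNA it held for 6 of 24 heat shock and unfolded protein response genes, which encode chaperones, and in the ratio for 8 of 44 genes of the spliceosome and nuclear speckles. In total RNA the shares of oxidative phosphorylation genes and histones were near that of all clusters. The heat shock and spliceosome lists are given first in the measure with their highest count, and no test of these counts was made. The other measures gave other counts. In nascent RNA and the ratio, oxidative phosphorylation genes gave 5 and 7, mitochondrial ribosomal proteins 1 and 9, proteasome subunits 2 and 2, and histones 4 and 3. The heat shock list gave 1 in total RNA and 1 in the ratio. The spliceosome list gave 1 in total RNA and 5 in nascent RNA.

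Single genes of such lists differed in which arrays were at the ends. SDHD, an anchor subunit of succinate dehydrogenase, had total RNA values of -2.44 and -2.19 in culture 1, -2.03 and -1.95 in culture 2, and -4.59 and -3.00 in culture 3, each pair in the order run 1, run 2. Both arrays of culture 3 were the lowest, but SDHD was below background on all 6 total RNA arrays. SDHC, the other anchor subunit, had total RNA values of 0.70 and 0.56, 0.49 and 0.31, and -0.57 and -0.24, so that the 3 cultures did not overlap. Its nascent values of -1.70 and -1.64, -1.97 and -1.58, and -2.02 and -1.35 did overlap. The limma adjusted p between cultures for SDHC was 0.633 in total RNA and 0.830 in the ratio. MRPL41, a protein of the large mitochondrial ribosomal subunit, had total RNA values of -0.30 and 0.60, 0.05 and 0.01, and -0.97 and -1.27, with both arrays of culture 3 the lowest (adjusted p = 0.633, limma). RPS13, a protein of the small cytosolic ribosomal subunit, had values of -2.43 and -1.36, -1.26 and -1.09, and -0.52 and -0.80 (adjusted p = 0.677, limma). Ribosomal protein and succinate dehydrogenase genes have near-identical pseudogene copies in the genome, and a probe may read more than one of them.

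Among genes of cell division and of the B cell, CDK1, the kinase that drives entry into mitosis, had total RNA values of 0.59 and 0.59, 0.80 and 0.88, and 0.03 and 0.46. The first array of culture 3 was the lowest. CR2, the complement receptor through which Epstein-Barr virus enters B cells, had 1.46 and 1.14, 1.25 and 1.24, and 0.70 and 0.98, again lowest on that array. In nascent RNA the 6 values for CR2 lay between 0.47 and 0.60. EIF4E, which binds the mRNA cap at the start of translation, had total RNA values of -0.55 and -0.60, -1.04 and -0.93, and -1.71 and -0.79. KRT8, a keratin of simple epithelia from the marker list of other cell types, had 2.01 and 2.42, 2.47 and 2.40, and 3.19 and 2.91, with culture 3 the highest. None of these 4 genes passed the test between cultures.

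Marker genes deviated on the same arrays of total RNA. The tested T and NK cell, monocyte, and fibroblast and epithelial markers deviated by -0.54, -0.43 and -0.38 on the first array of culture 1 and by 0.45, 0.35 and 0.39 on the first array of culture 3. The 9 B lymphoblast markers deviated in the same direction by less, -0.11 and 0.17. Without the first array of culture 3, the deviations of the 3 other marker lists on the first array of culture 1 were -0.45, -0.36 and -0.30, and that of the B lymphoblast markers -0.08. All clusters with a signal of 6 to 7 deviated by -0.23 and 0.22 on those arrays. The part of cell composition in this was not tested.

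The genes named by the size of the run difference did not pass the test in any measure. In total RNA the rule named SYP, DYNLL1 and CCNQ, with run 2 above run 1 in every culture. SYP, the synaptic vesicle protein synaptophysin, had -2.23 and -1.65, -1.66 and -1.07, and -2.44 and -1.56, a mean difference of 0.69 ± 0.19 (moderated SE, n = 3 cultures). The SE here and below is limma's moderated one, which draws on the spread of all clusters and is not the SE of these 3 differences alone. SYP was above background on 1 of 6 total RNA arrays, so its difference there is uncertain. DYNLL1, a light chain of the motor protein dynein, had 2.25 and 2.80, 2.71 and 2.78, and 0.82 and 2.20, a difference of 0.67 ± 0.23 (moderated SE, n = 3). The first array of culture 3 alone stood low for DYNLL1, and without culture 3 its difference was 0.31. CCNQ, a cyclin, had a difference of 0.64 ± 0.24 (moderated SE, n = 3) and was below background on all 6 total RNA arrays. With run 2 below run 1, RUNDC1 had -0.58, FAM27E5, above background on 1 of 6 total RNA arrays, -0.45, and the cluster with the symbol ND5 -1.05. The ND5 cluster was below background on all 12 arrays, and whether its probes read mitochondrial transcripts or nuclear copies was not checked.

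In nascent RNA, CHORDC1, a co-chaperone of HSP90, had -1.83 and -1.45, -1.80 and -1.20, and -2.30 and -1.78, so that run 2 was above run 1 by 0.39, 0.60 and 0.52. Its mean difference was 0.50 ± 0.10 (moderated SE, n = 3; adjusted p = 0.460, limma). LYPLA1, a thioesterase that removes lipid from proteins, and TCAF1, a partner of an ion channel, had 0.42 and 0.41. LBP, a plasma protein that binds bacterial lipopolysaccharide and is made mainly in liver, had -1.23 and -1.83, -1.27 and -1.73, and -1.31 and -1.78. The difference for LBP was -0.51 ± 0.09 (moderated SE, n = 3, adjusted p = 0.429, limma). ABAT, which breaks down the transmitter GABA, had -0.39 ± 0.08 (moderated SE, n = 3; adjusted p = 0.460, limma), and SYP had -0.40.

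In the ratio SYP and LBP had the most negative differences of the genes the rule named. Their differences in total and nascent RNA had opposite signs, which a choice by the size of the ratio difference favours. LBP had ratios of 0.50 and -0.80, -0.39 and -0.89, and -0.23 and -1.25, a difference of -0.94 ± 0.17 (moderated SE, n = 3). SYP had a difference of -1.03 ± 0.21 (moderated SE, n = 3), and LHX5, a homeobox factor of the nervous system, -0.76 ± 0.19 (moderated SE, n = 3). THAP5, a zinc finger protein, had ratios of -0.56 and 0.07, -0.45 and 0.18, and -0.26 and 0.31, with run 2 above run 1 in each culture, as the rule asks. Its difference was 0.61 ± 0.12 (moderated SE, n = 3). The cluster with the symbol ND6, for which mitochondrial transcripts and nuclear copies were not told apart either, had 0.65, and the zinc finger gene ZNF671 had 0.58. The adjusted p for each of these genes in the ratio was close to 1.

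**Figure D4:**
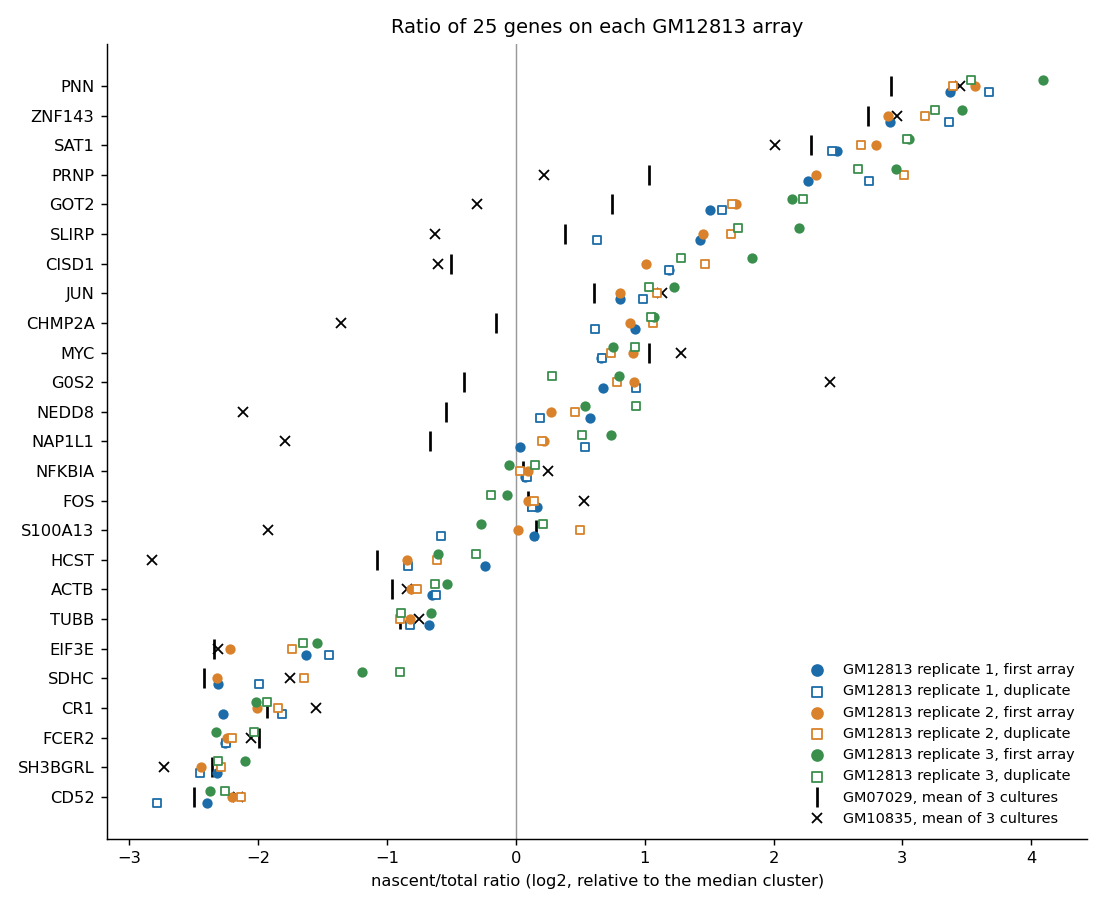
Centred log2 nascent/total ratio of named genes in each GM12813 culture; filled points are run 1, open points run 2, colours are cultures, and vertical bars and crosses are the means of GM07029 and GM10835. For MYC the 6 points lie close together, while those of SLIRP are spread more widely.

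Both arrays of culture 1 lay below both of culture 2 for replication-dependent histone genes more often than for any other list with at least 10 tested members, although no single gene passed the test. These cultures were set against each other after the values were seen. These genes supply histones to new DNA in S phase, and most of their short transcripts lack a poly(A) tail and carry a 3' stem-loop. Of 49 on the array, 44 were tested. In total RNA both arrays of culture 1 lay below both of culture 2 for 27 of 44 (61.4%), against 20.4% of all clusters, and above them for 0 of 44, against 12.4%. In nascent RNA it was 24 of 44 (54.5%) against 15.2%, and 0 above, against 12.6%. Of the lists with fewer tested members, HLA class II had a higher share below in nascent RNA, 4 of 7 (57.1%), and 0 of 7 in total RNA. With the first array of culture 1 alone the share below both arrays of culture 2 was 33 of 44 in total RNA, against 46.9% of all clusters, and 29 of 44 in nascent RNA, against 36.1%. With its second array alone it was 30 of 44, against 37.4%, and 32 of 44, against 30.1%. In both fractions together it was 16 of 44 (36.4%) against 3.61% of all clusters. Without centring the counts were 18 of 44 in total RNA, against 8.84% of all clusters, and 30 of 44 in nascent RNA, against 15.3%, and with quantile normalization 24 and 25 of 44, against 16.2% and 13.8%. Culture 1 was above culture 2 for 0 of 44 under each of these scalings, where without centring 3850 of 14167 clusters were above in total RNA and 1610 in nascent RNA. Many histone genes lie in one cluster of the genome and have near-identical copies, so probes may be shared and the members are not independent.

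The difference of the histone genes is given by run as a description. A gene with both arrays of culture 1 below both of culture 2 is below on each run by definition. The medians and counts by run are therefore not a separate repeat of the pattern. The median of culture 1 minus culture 2 was -0.18 on run 1 and -0.29 on run 2 in total RNA, where all clusters had -0.05 and -0.02. In nascent RNA it was -0.29 and -0.15, where all clusters had -0.04 and 0.03. Culture 1 was below culture 2 for 33 and 43 of the 44 genes in total RNA, against 58.1% and 53.1% of all clusters, and for 39 and 33 in nascent RNA, against 60.9% and 42.0%. The median deviations of the 6 arrays in nascent RNA were -0.10 and -0.11 for culture 1, 0.13 and 0.02 for culture 2, and 0.05 and 0.01 for culture 3. In total RNA they were -0.16 and -0.12, 0.00 and 0.17, and 0.16 and -0.04. The mean square between cultures was 2.49 times the residual in total RNA and 3.27 times in nascent RNA, where all clusters had 1.36 and 1.13. DNA replication genes, which act in the same phase of the cell cycle, had 1.33 in total RNA and 2.54 in nascent RNA over 36 genes. In total RNA they did not show the order of the histones. Both arrays of culture 1 lay below both of culture 2 for 7 of 36 (19.4%) and above for 8, against 20.4% and 12.4% of all clusters. In nascent RNA they lay below for 10 of 36 (27.8%) and above for 5, against 15.2% and 12.6%. No histone gene passed the test adjusted over all clusters. At an unadjusted p under 0.05 there were 9 of 44 in total RNA and 16 of 44 in nascent RNA, against 7.07% and 7.08% of all clusters.

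**Figure D5:**
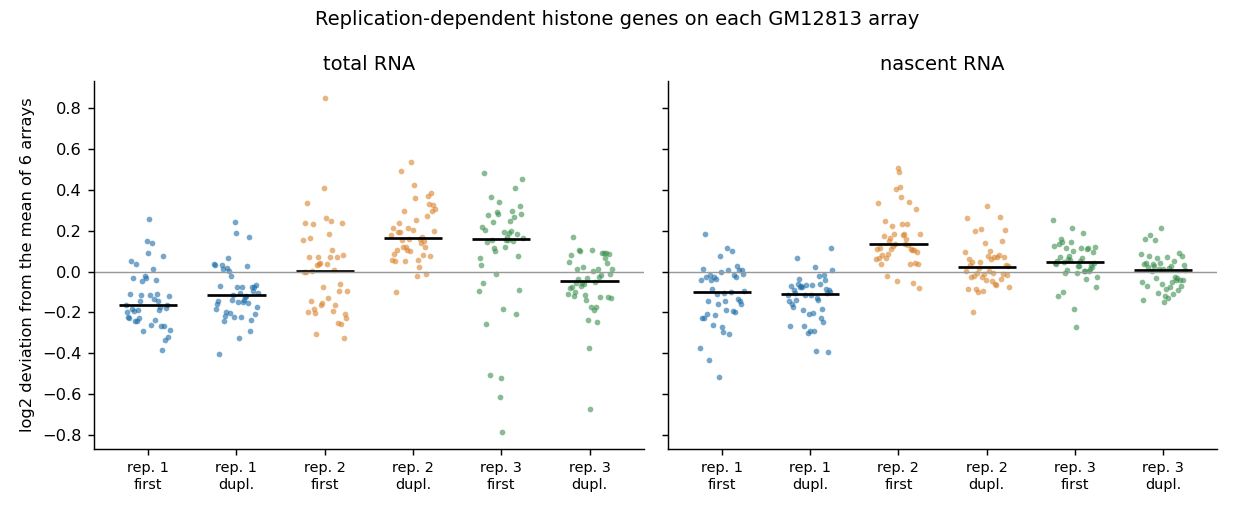
Log2 deviation of 44 replication-dependent histone genes from their 6-array mean on each GM12813 array, in total and nascent RNA; each point is 1 gene and the black bar is the median. In nascent RNA both arrays of culture 1 have medians of -0.10 and -0.11, below the other 4 arrays, which have 0.01 to 0.13.

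H2BC3, an H2B gene, had nascent values of 0.32 and 0.48 in culture 1, 1.08 and 0.92 in culture 2, and 0.32 and 0.44 in culture 3. Its total RNA values were 0.78 and 0.44, 1.37 and 0.95, and -0.26 and -0.15, so culture 2 was above the other cultures in both fractions (adjusted p = 0.566 in nascent and 0.576 in total RNA, limma). H1-3, a linker histone, had nascent values of 2.21 and 2.17, 2.77 and 2.69, and 2.47 and 2.30, with no overlap between the 3 cultures. H4C4, an H4 gene, had 0.95 and 0.70, 1.40 and 1.30, and 1.19 and 1.02, likewise without overlap. H1-3 and H4C4 were named after their values were seen, and both had an adjusted p of 0.566 between cultures (limma). H2BC21, whose transcript can also be polyadenylated, had total RNA values of -0.19 and -0.10, -0.42 and 0.19, and -0.96 and -0.58, with culture 3 the lowest.

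The choice of run moved the number of genes called, and less often which way they were called. With the runs of each culture averaged, 10579 clusters (74.7%) had a GM12813 ratio different from that of the median cluster at an adjusted p of 0.05 (limma), 5358 above and 5221 below. With run 1 alone it was 7966 and with run 2 alone 10147. Both runs called 7654, which is 96.1% of the run 1 calls and 75.4% of the run 2 calls, and 5 of these had opposite signs. Between GM12813, GM07029 and GM10835, each with 3 cultures, 3608 clusters (25.5%) differed in ratio with the runs averaged, 2142 with run 1 alone and 3358 with run 2 alone. Both runs called 1901, which is 88.7% of the run 1 calls and 56.6% of the run 2 calls.

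Genes with large ratios were called with either run. GOT2, the mitochondrial aspartate aminotransferase, had GM12813 ratios of 1.51 and 1.60, 1.71 and 1.68, and 2.14 and 2.22, against means of 0.75 in GM07029 and -0.30 in GM10835. It differed between lines with an adjusted p of 0.000478 on run 1 and 0.000232 on run 2 (limma). PNN, a splicing factor of nuclear speckles, had 3.37 and 3.68, 3.56 and 3.39, and 4.09 and 3.53, well above the median cluster on every array pair. CD52, a surface glycoprotein of lymphocytes, had -2.40 and -2.78, -2.20 and -2.13, and -2.37 and -2.26, well below it. SLIRP, a binding protein of mitochondrial mRNA, spread more widely, with 1.43 and 0.63, 1.45 and 1.67, and 2.19 and 1.72, and still differed between lines on run 1 (adjusted p = 0.00117) and run 2 (adjusted p = 0.00324).

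Genes near the threshold moved across it. MYC, a growth-promoting transcription factor with short-lived mRNA, had ratios of 0.66 and 0.67, 0.91 and 0.74, and 0.75 and 0.92. Its difference between lines had an adjusted p of 0.0357 with the runs averaged, 0.0833 with run 1 and 0.0453 with run 2 (limma). JUN, a subunit of the AP-1 factor, had 0.81 and 0.99, 0.81 and 1.10, and 1.23 and 1.03, with adjusted p of 0.0387, 0.116 and 0.0341. FOS, its partner, had 0.16 and 0.12, 0.10 and 0.14, and -0.07 and -0.19, with 0.0422, 0.0755 and 0.0482. CR1, a complement receptor of B cells, had -2.28 and -1.81, -2.01 and -1.85, and -2.02 and -1.93, and here run 2 lost the call, with 0.0404, 0.0425 and 0.0975. NAP1L1, a histone chaperone, had 0.03 and 0.54, 0.22 and 0.21, and 0.74 and 0.51, and differed from the median cluster with run 2 (adjusted p = 0.00794) but not with run 1 (adjusted p = 0.119). ACTB, which encodes beta-actin, had -0.65 and -0.62, -0.82 and -0.76, and -0.53 and -0.63, and lay below the median cluster on either run.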

How the data were processed

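The deposited values are log2 gene-level intensities, 1 column per array with no missing value, as the authors made them. Per the submitters' processing notes, Affymetrix Power Tools and build hg18 were used. The version, the summary algorithm and the background correction were not given in the sources used here. Each array was centred on its median over tested clusters, and a ratio is the nascent minus the total value of the same culture and run, centred likewise. Tests used limma 3.58.1 (lmFit, eBayes with trend) in R 4.3.3, with tables made in Python 3.11.15. Run 2 was compared with run 1 with culture as a block, and cultures with run as a term, with Benjamini-Hochberg adjustment at 0.05. The pairing comes from the titles, which give a duplicate the number of its culture; same-numbered arrays correlated in their deviations with r of -0.22 to 0.31 within a fraction. Symbols came from the platform's table, and 14377 matched RefSeq, which also gave gene spans. Precision is limited by the number of arrays and, for dim clusters, by signal over background. The tests were tested on simulated data made from the same clusters. The members and lists were chosen with earlier results of these data known. Named genes were the 3 largest run differences each way with 1 sign in 3 cultures, the 2 largest run and culture differences in each list, and 25 genes kept from earlier work. Some of them are not described. Alternatives were no centring, quantile normalization, other filters, no replicate block, either run alone, and leaving out each culture or, chosen after seeing the data, each array or another scaling of the list counts.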

Additional observations from a re-analysis of the deposited data

Results flagged for a closer look

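In 4 named genes the run difference in total RNA and that in nascent RNA had opposite signs in all 3 cultures. Run 2 minus run 1 of the ratio was -0.94 for LBP, -1.03 for SYP, 0.22 for MVK, an enzyme of cholesterol synthesis, and 0.33 for TNFRSF10A, a death receptor. The limma test of the ratio is the test of that difference between fractions, and none of the 4 passed it after adjustment.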

How the results depend on the processing

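The tests of runs called 0 clusters in each measure with no replicate block as with it. With the filter taken over the 12 GM12813 arrays, 1 cluster was called between runs in nascent RNA. Without replicates 1 to 3 in turn, the test of runs called 0 to 62 clusters in total RNA, 0 to 149 in nascent RNA and 0 to 16 in the ratio, and the test of cultures 0 to 110, 0 to 220 and 0 to 82. Leaving out replicate 2 or 3 gave 5 and 62 between runs in total RNA, and replicate 1 or 3 gave 149 and 109 in nascent RNA. Without single arrays, chosen after seeing the data, the test of cultures called 0 to 1510 in total RNA, 0 to 752 in nascent RNA and 0 to 145 in the ratio; by array these were 63, 113, 215 and 1510 for both arrays of cultures 2 and 3 in total RNA, 326, 752, 195 and 136 for both of cultures 1 and 3 in nascent RNA, and 90, 145 and 5 for both runs of culture 2 and run 2 of culture 3 in the ratio. These fits leave 1 residual degree of freedom per cluster and lean on the spread pooled by limma, and the cause was not tested. Without a single array its culture is held by 1 array, for culture 3 in total RNA in 1 case the array that stood apart. Those counts are therefore not read as differences between cultures. Between 3 lines, 2142 clusters were called with run 1 only and 2055 with no filter on low signal, 1957 to 3547 without each GM12813 replicate or the first total RNA array of replicate 3, and 1957 and 2094 of these without replicates 2 and 3. The ratio was called against the median cluster for 14192 clusters with no filter. Of the single genes, the FOS ratio in GM12813 (0.04) lay between -0.006 and 0.13 without each replicate in turn, and that of S100A13 (0.00) between -0.12 and 0.12 and at -0.038 with run 1 only; neither passed the threshold. Without replicate 2 the run differences of DYNLL1 in total RNA (0.96), LBP in the ratio (-1.16) and SYP in the ratio (-1.18) passed the threshold (limma). The 3-line calls of MYC, JUN, FOS and CR1 were also lost without each replicate and with no filter. The pair medians shifted with the arrays left out. For different cultures in the same run, the total RNA mean of 0.196 became 0.244 without replicate 2 and 0.158 without replicate 3. Without the first total RNA array of replicate 3 it was 0.146, which lay below the 0.154 of repeat arrays. The matching ratio mean of 0.191 became 0.234, 0.159 and 0.149 under these settings. Signal over background limits the dim clusters most.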
